A study of Homo sapiens with 22 samples.

Results

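The messenger RNA of 10 human dioxygenase genes was followed in leukemia cells treated with FP54, a degrader of the RNA demethylase FTO. The genes were chosen by name from the enzyme families to which FTO is related, not by their values: ALKBH1, ALKBH2, ALKBH3, ALKBH4, ALKBH6, ALKBH7 and ALKBH8 of the AlkB family, and TET1, TET2 and TET3. They are 10 of the 20411 genes in each deposited table of RPKM, the number of reads scaled by transcript length and by library total. FP54 is a PROTAC, a molecule that joins a ligand of FTO to a ligand of the ubiquitin ligase VHL. Both cell lines carry their own FTO gene, with no added or deleted allele named in the labels. MOLM-13, a line of acute myeloid leukemia with an MLL rearrangement, and NB4, a line of acute promyelocytic leukemia, were each treated with 2 μM FP54 or with DMSO, the solvent, for 48 hours. RNA-seq gave 3 libraries per treatment and line, 12 of the 22 samples in the series. Each line is a single established culture, and nothing in the labels says whether the 3 libraries came from separate cultures, so p-values measure the spread between these libraries only.

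AlkB and TET proteins use iron and 2-oxoglutarate, a product of the citric acid cycle, to oxidise a carbon-hydrogen bond. Many AlkB proteins oxidise methyl groups on damaged DNA bases, on RNA or on protein, which then leave as formaldehyde, while ALKBH8 hydroxylates a side chain of a tRNA base. TET proteins oxidise the methyl group of 5-methylcytosine in DNA to 5-hydroxymethylcytosine and beyond, a route by which methyl marks are lost. In myeloid cells TET2 is often mutated in leukemia, TET1 was found as a fusion partner of MLL, and the 2-hydroxyglutarate made by mutant IDH1 or IDH2 inhibits this class of enzyme. FTO and ALKBH5 are the AlkB family members that remove N6-methyladenosine (m6A) from RNA, and they are given here only for reference.

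The labelled cell type was checked against marker genes. All 10 myeloid markers had a mean of at least 1 RPKM in DMSO-treated cells of both lines. HOXA9 and MEIS1, the homeobox genes typical of MLL-rearranged leukemia, had 21.3 and 6.36 RPKM in MOLM-13 cells and 0.234 and 0.157 RPKM in NB4 cells. Of the same list FLT3, a receptor kinase, had 74.0 RPKM in MOLM-13 and 5.67 RPKM in NB4 cells, while HOXA10 had 7.30 and 13.2 RPKM. MPO, the peroxidase of granule-forming myeloid cells, had 16.1 RPKM in MOLM-13 and 2170 RPKM in NB4 cells. The list expected of promyelocytic NB4 cells went against the label for its 3 granule proteases: ELANE had 186 RPKM in MOLM-13 and 0.150 RPKM in NB4 cells, PRTN3 413 and 61.0 RPKM, and CTSG 116 and 58.5 RPKM. HGF, the other gene of that list, had 0.1005 RPKM in MOLM-13 and 3.32 RPKM in NB4 cells. Of the T-cell markers CD3D reached 6.35 RPKM in NB4 cells and TRBC2 was listed at 0 in both lines, and of the epithelial markers KRT18 was the highest, with 7.35 RPKM in MOLM-13 and 11.5 RPKM in NB4 cells, EPCAM had 0.0158 and 8.15 RPKM, and KRT19 was listed at 0 in NB4 cells. CD3D was 10.3 RPKM and EPCAM 9.71 RPKM in FP54-treated NB4 cells, and their part in the results below was not tested.

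FP54 was compared with DMSO to see whether the relatives of FTO changed in mRNA level along with loss of the FTO protein. In MOLM-13 cells ALKBH2, a DNA repair enzyme, was lower and ALKBH6 was higher, and the other 7 genes tested were not called. In NB4 cells none of the 9 was called. ALKBH2 had -0.44 and ALKBH6 0.40 on the log2 scale there, short of the fold limit, and the ALKBH6 value was -0.07 after quantile normalization. TET1 had a mean below 1 RPKM in both lines and was not among the genes tested. A gene was called changed when limma, fitted to log2(RPKM + 0.1) over all genes with a mean of at least 1 RPKM, gave an unadjusted p under 0.01 together with a change of 0.5 or more on the log2 scale, the limits used by the study. Of 9710 genes tested in MOLM-13 cells 9.04% were called lower and 9.3% higher, and of 9853 genes in NB4 cells 10.7% and 18.6%. Against that background 1 of 9 members called lower and 1 of 9 called higher in MOLM-13 cells, and 0 of 9 in either direction in NB4 cells, are not shown to be particular to these families. In NB4 cells 6 of the 9 members had an unadjusted limma p below 0.05, beside 58% of all genes, and limma-voom on recovered read numbers also called 0 in either direction.

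**Figure D1:**
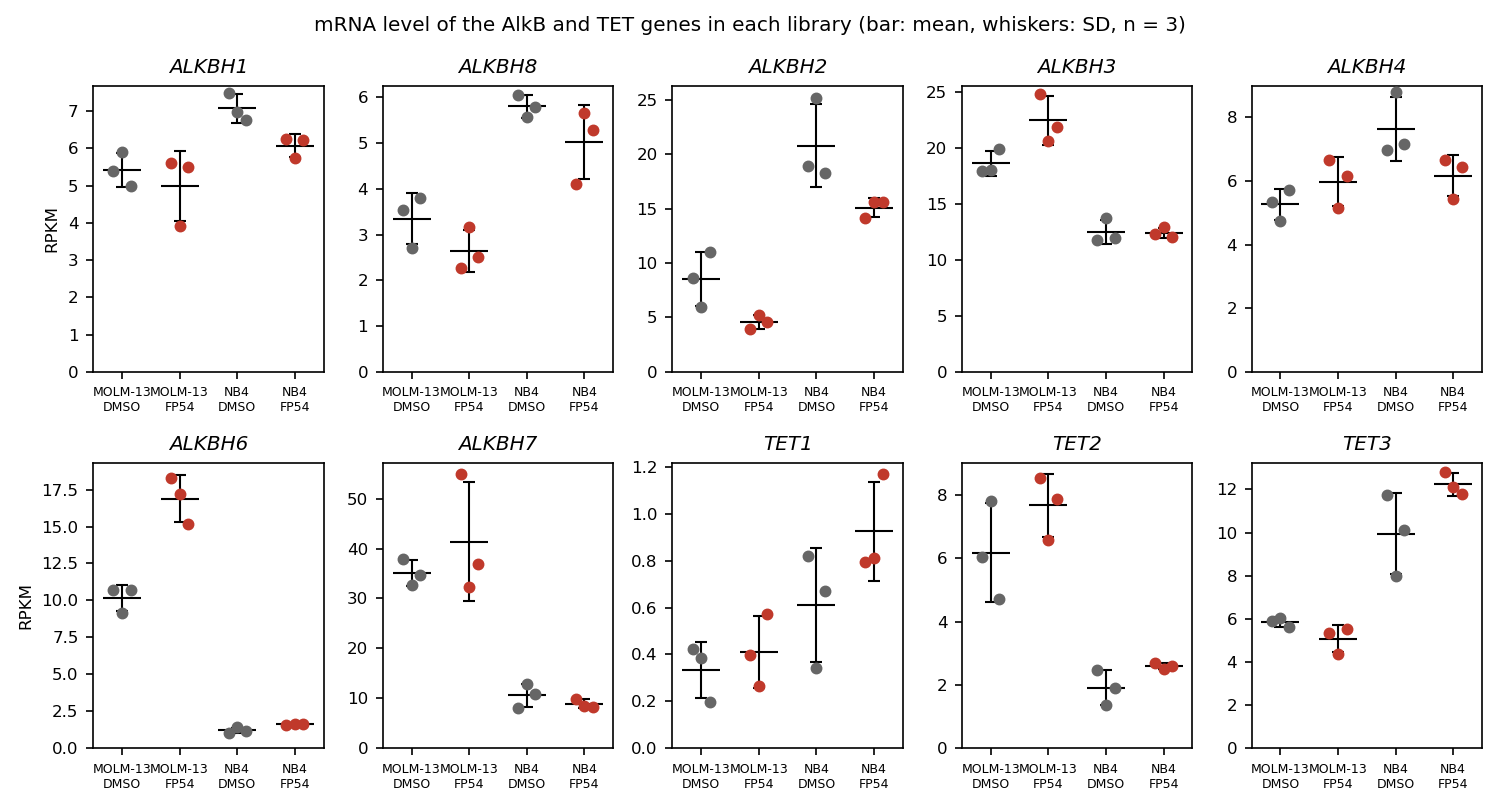
mRNA level of the 10 genes in RPKM (vertical axes, each starting at 0) in each of the 12 libraries, with DMSO in grey and FP54 in red, the horizontal bar at the mean and whiskers of 1 SD (n = 3). In MOLM-13 cells the ALKBH2 points for FP54 lie below those for DMSO and the ALKBH6 points for FP54 lie above them, and ALKBH6 is at 1.05 to 1.68 RPKM in all NB4 libraries.

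ALKBH2 (chr12:109088188-109093631, minus strand, hg38) and ALKBH3 (chr11:43880811-43920274, plus strand) remove methyl groups from the base-pairing face of adenine and cytosine, damage left by alkylating agents, ALKBH2 in double-stranded DNA and ALKBH3 mainly in single strands. In MOLM-13 cells ALKBH2 had 8.63, 5.97 and 10.98 RPKM in DMSO replicates 1 to 3 and 3.89, 5.24 and 4.57 RPKM in FP54 replicates 1 to 3. No FP54 library reached the lowest DMSO library. The mean under FP54 was 53.6% of that under DMSO, a log2 fold change of -0.85 (SE 0.22, limma adjusted p = 0.0261). The call depended on single libraries: the log2 fold change was -0.65 without DMSO replicate 3 and -0.74 without FP54 replicate 1, both past the fold limit, with unadjusted limma p of 0.0155 and 0.0159 that missed the limit of 0.01. It remained past both limits without FP54 replicate 2, the shallowest library, at a log2 fold change of -0.96. The limma adjusted p of ALKBH2 was 0.1175 without DMSO replicate 3, 0.1167 without FP54 replicate 1 and 0.0686 without DMSO replicate 1. With no filter on low values it was 0.0632, and in every other fit it was below 0.05.

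In NB4 cells ALKBH2 had 18.9, 25.2 and 18.2 RPKM under DMSO and 14.1, 15.6 and 15.6 RPKM under FP54. Again all FP54 libraries were below all DMSO libraries, with a mean of 72.6% of DMSO. The log2 fold change of -0.44 (SE 0.12, limma adjusted p = 0.0113) passed an adjusted p of 0.05 but not the fold limit of 0.5. It was past both limits of the study under median-ratio scaling (-0.64) and without DMSO replicate 1 (-0.50) or DMSO replicate 3 (-0.53), and was -0.30 without DMSO replicate 2. At an adjusted p below 0.05 with no fold limit, 22% of all genes in NB4 cells were lower and 29.8% higher, against 9.32% and 9.84% in MOLM-13 cells, and the members past that limit were ALKBH2 and ALKBH6 in both lines.

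ALKBH3 was not called in either line. It had 18.6 ± 1.11 RPKM under DMSO and 22.4 ± 2.17 RPKM under FP54 in MOLM-13 cells (SD, n = 3), where the groups did not overlap, with a log2 fold change of 0.26 and a 95% confidence interval from -0.04 to 0.57. In NB4 cells it had 12.5 ± 1.08 and 12.4 ± 0.450 RPKM (SD, n = 3), with an interval of the log2 fold change from -0.21 to 0.20. Of the 2 repair enzymes ALKBH2 was called in MOLM-13 cells and, with all libraries as deposited, not in NB4 cells, ALKBH3 was called in neither line, and the difference between them was not tested.

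ALKBH6 (chr19:36009120-36014239, minus strand) is an AlkB protein whose substrate is less well established. In MOLM-13 cells it had 10.7, 9.13 and 10.7 RPKM under DMSO and 18.3, 17.2 and 15.2 RPKM under FP54. The groups were well apart, with a mean under FP54 of 166.2% of DMSO, a log2 fold change of 0.73 (SE 0.14, limma adjusted p = 0.00970). Leaving out each library in turn gave log2 fold changes from 0.65 to 0.80, all still called by the limits of the study. The gene shares 1076 exon bases with a long noncoding RNA gene on the same strand, whose reads cannot be told apart from those of ALKBH6 where they overlap.

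In NB4 cells ALKBH6 was a low-level transcript, with 1.05, 1.42 and 1.19 RPKM under DMSO and 1.56, 1.66 and 1.68 RPKM under FP54, from 71 to 130 reads per library. FP54 libraries were above DMSO libraries, with a log2 fold change of 0.40 (SE 0.14, limma adjusted p = 0.0354). This value rested on the scaling of the libraries and on single libraries. It was 0.22 (limma adjusted p = 0.244) after median-ratio scaling and -0.07 after quantile normalization, 0.31 (limma adjusted p = 0.109) without DMSO replicate 1, and 0.51, called by the limits of the study, without DMSO replicate 2. The mean level of 400 olfactory receptor genes, which blood cells are not expected to transcribe, was 0.00280 ± 0.00106 RPKM in DMSO-treated and 0.0531 ± 0.00194 RPKM in FP54-treated NB4 cells (SD, n = 3), and 0.00411 and 0.00631 RPKM in MOLM-13 cells. With that level subtracted from each library, ALKBH6 in NB4 cells had a log2 fold change of 0.36 (limma adjusted p = 0.0569), and the mean under FP54 was 129.8% of DMSO in place of 133.9%.

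**Figure D2:**
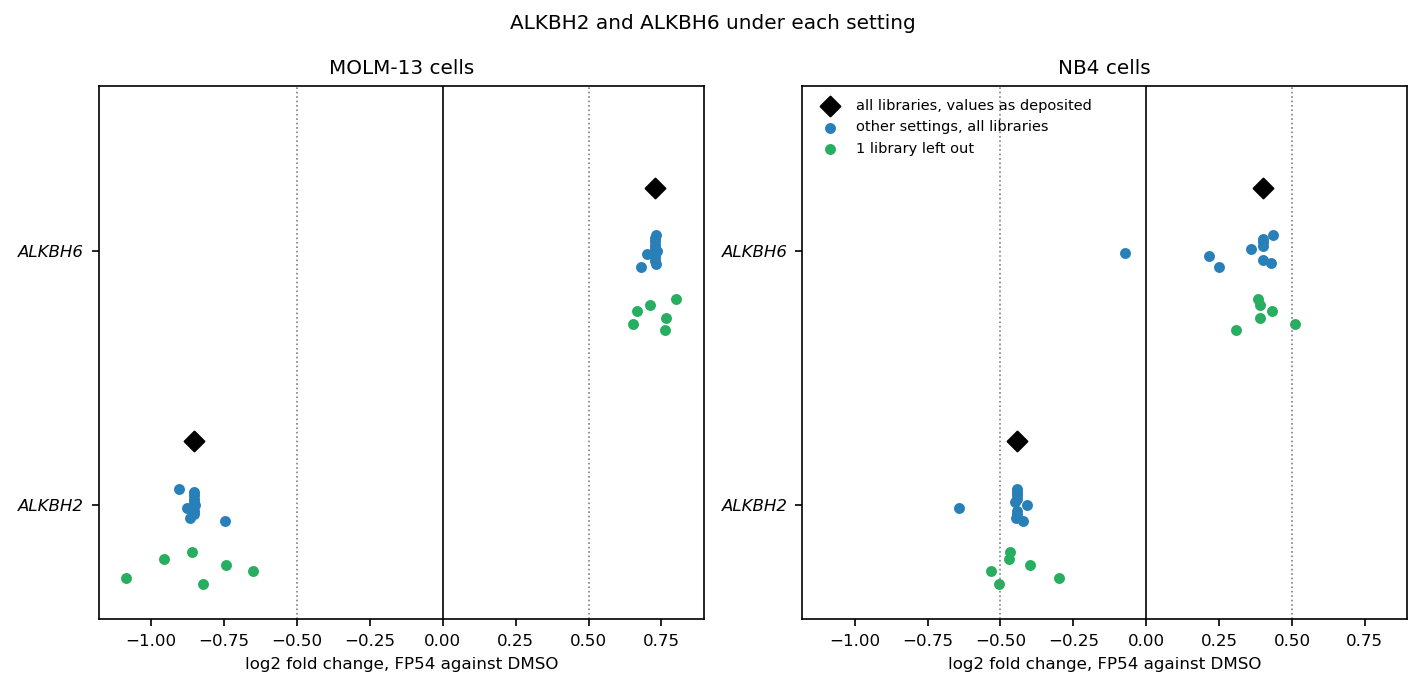
Log2 fold change (horizontal axis, FP54 against DMSO) of ALKBH2 and ALKBH6 in MOLM-13 cells (left) and NB4 cells (right), from all libraries with the values as deposited (black), from other settings with all libraries (blue) and with each library left out in turn (green), and with dotted lines at the fold limit of 0.5 either way. In MOLM-13 cells every point lies outside the dotted lines, while in NB4 cells most lie inside and ALKBH6 under quantile normalization is at -0.07.

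Promoter sequence is shown for these 2 genes, the members called in MOLM-13 cells. Its CpG dinucleotides (CG in both strands) are marked because they are the sites at which TET proteins act. The stretches come from the RefSeq promoter table of build GRCh38.p14, run 5′ to 3′ on the strand of the gene, end where the annotated gene begins, and have each CG in capitals. For ALKBH2 it is chr12:109093632-109093722 (minus strand, 91 bases, 5 CG) and for ALKBH6 chr19:36014240-36014489 (minus strand, 250 bases, 16 CG).
ALKBH2: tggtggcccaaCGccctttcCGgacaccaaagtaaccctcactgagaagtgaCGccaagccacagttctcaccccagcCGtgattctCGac
ALKBH6: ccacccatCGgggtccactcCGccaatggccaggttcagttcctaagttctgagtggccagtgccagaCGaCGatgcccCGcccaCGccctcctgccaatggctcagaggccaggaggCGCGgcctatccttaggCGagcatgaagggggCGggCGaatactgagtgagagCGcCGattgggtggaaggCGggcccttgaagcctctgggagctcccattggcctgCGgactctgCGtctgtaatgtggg
In the 250 bases before the outermost RefSeq start the 10 genes had from 7 CG (ALKBH8) to 37 CG (TET3), with a median of 17, and the median of all 35116 promoters in the table was 11. ALKBH2 had 19, more than 65.4% of all promoters, and ALKBH6 16, more than 59.0%. The counts of these 2 genes lay in the middle of the range of the 10 genes. Their relation to the FP54 effect was not tested. Of the 250 bases counted for ALKBH2, 159 lie inside the annotated gene and are not shown, and the 91 shown hold 5 of the 19 CG. Methylation was not measured in these libraries.

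ALKBH1 and ALKBH8 act on transfer RNA. ALKBH1 (chr14:77672404-77708023, minus strand) works on methylated bases of tRNA, also in mitochondria, and ALKBH8 (chr11:107502727-107565742, minus strand), which carries a methyltransferase domain too, completes the modified wobble uridine. ALKBH1 had 5.43 ± 0.463 RPKM under DMSO and 5.00 ± 0.942 RPKM under FP54 in MOLM-13 cells, and 7.08 ± 0.381 and 6.08 ± 0.298 RPKM in NB4 cells (SD, n = 3). The groups overlapped in MOLM-13 cells and did not in NB4 cells, where the log2 fold change was -0.22 (limma adjusted p = 0.0801). This NB4 value was -0.41 (limma adjusted p = 0.00298) under median-ratio scaling and -0.35 (limma adjusted p = 0.00808) under quantile normalization, both short of the fold limit. SLIRP, an RNA-binding protein gene that starts 48 bases away on the other strand, fell in NB4 cells from 31.6 to 16.7 RPKM, a log2 fold change of -0.91 (limma adjusted p = 3.86e-05), and had -0.36 (limma adjusted p = 0.304) in MOLM-13 cells, where it was not called. ALKBH8 had a log2 fold change of -0.33 in MOLM-13 cells (95% confidence interval -0.77 to 0.11) and -0.22 in NB4 cells (-0.50 to 0.06), with overlapping groups in both. In NB4 cells the ALKBH8 value was -0.41 (limma adjusted p = 0.0114) under median-ratio scaling and -0.38 (limma adjusted p = 0.0208) under quantile normalization. Without FP54 replicate 1 it was -0.08.

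ALKBH4 (chr7:102456238-102464863, minus strand), which has been linked to demethylation of actin, had 5.34, 4.75 and 5.72 RPKM under DMSO and 6.64, 5.15 and 6.15 RPKM under FP54 in MOLM-13 cells. In NB4 cells it had 6.97, 8.78 and 7.14 RPKM under DMSO and 6.65, 5.42 and 6.42 RPKM under FP54. The groups overlapped in MOLM-13 cells, with a log2 fold change of 0.18, and did not in NB4 cells, with -0.30 (limma adjusted p = 0.0596). This NB4 value was -0.498 (limma adjusted p = 0.00698) under median-ratio scaling and -0.43 (limma adjusted p = 0.0154) under quantile normalization, both short of the fold limit. Without DMSO replicate 2 it was -0.20. LRWD1, which starts 93 bases away on the other strand, had log2 fold changes of 0.05 in MOLM-13 and -0.34 in NB4 cells (limma adjusted p = 0.0259 in NB4 cells). ALKBH4 shares 588 exon bases with ORAI2 on the other strand, and whether reads were counted by strand is not given in the sources used here. ALKBH7 (chr19:6372794-6375250, plus strand), a mitochondrial AlkB protein involved in programmed necrosis, was the most abundant member in MOLM-13 cells. It ranged from 32.6 to 37.8 RPKM under DMSO and from 32.3 to 54.9 RPKM under FP54, where replicate 1 alone was above all DMSO libraries. Its log2 fold change of 0.20 became -0.02 without that library, and in NB4 cells it was -0.23 (95% confidence interval -0.57 to 0.11). The NB4 value of ALKBH7 was -0.41 (limma adjusted p = 0.0170) without DMSO replicate 1 and -0.08 without DMSO replicate 2. Under median-ratio scaling it was -0.43 (limma adjusted p = 0.0484), also short of the fold limit.

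**Figure D3:**
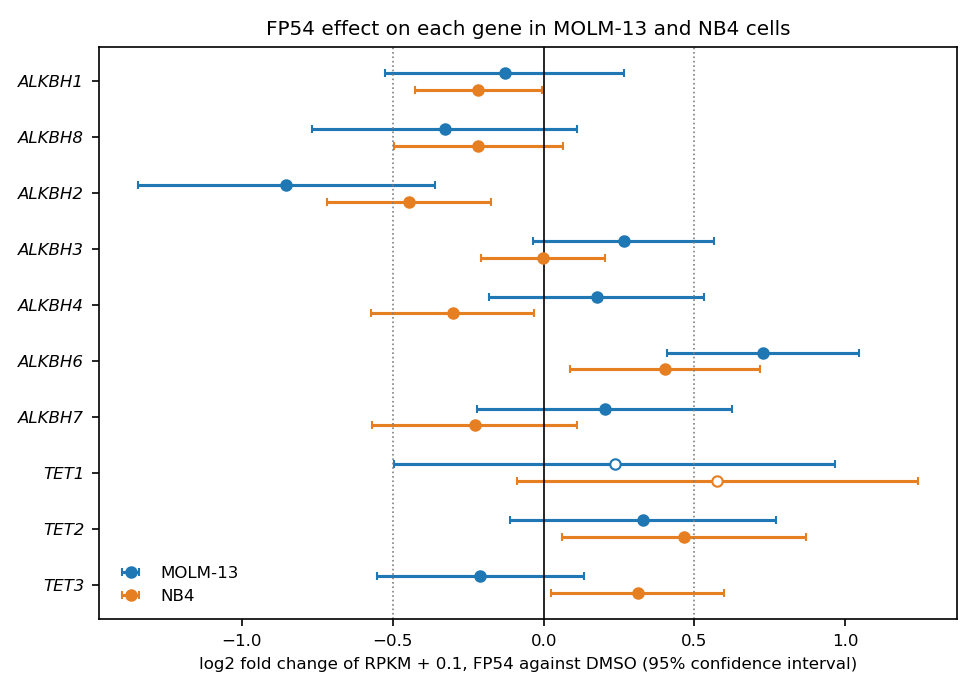
Log2 fold change of RPKM + 0.1 (horizontal axis, FP54 against DMSO) with its 95% confidence interval for each of the 10 genes in MOLM-13 (blue) and NB4 cells (orange), with dotted lines at the fold limit of 0.5 either way. TET1 is drawn open because its mean is below 1 RPKM and its values come from a fit without that filter. Intervals that do not reach 0 in both lines belong to ALKBH2, on the lower side, and ALKBH6, on the higher side.

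TET3 (chr2:73984910-74108176, plus strand) was placed on opposite sides of DMSO in the 2 lines. In MOLM-13 cells it had 5.90, 6.06 and 5.63 RPKM under DMSO and 5.36, 4.36 and 5.51 RPKM under FP54. In NB4 cells it had 11.7, 8.01 and 10.1 RPKM under DMSO and 12.8, 12.1 and 11.8 RPKM under FP54. All FP54 libraries were below all DMSO libraries in MOLM-13 cells and above them in NB4 cells, by narrow margins in both. The log2 fold changes, -0.21 (limma adjusted p = 0.361) and 0.31 (limma adjusted p = 0.0656), did not pass the test in either line. The NB4 value was 0.11 under median-ratio scaling, 0.17 without DMSO replicate 2 and 0.44 (limma adjusted p = 0.0102) without DMSO replicate 1. The difference between the lines, 0.52 (95% confidence interval 0.09 to 0.95), had an unadjusted p of 0.0206 and an adjusted p of 0.101 in limma. TET3 shares 390 exon bases with a long noncoding RNA gene on the same strand.

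TET2 (chr4:105145875-105279816, plus strand) had 6.03, 7.82 and 4.71 RPKM under DMSO and 8.54, 6.59 and 7.89 RPKM under FP54 in MOLM-13 cells, groups that overlapped. In NB4 cells it had 2.47, 1.36 and 1.91 RPKM under DMSO and 2.704, 2.51 and 2.60 RPKM under FP54, groups that did not overlap. The log2 fold changes were 0.33 (95% confidence interval -0.11 to 0.77) in MOLM-13 cells and 0.47 (0.06 to 0.87, limma adjusted p = 0.0538) in NB4 cells. Neither passed the test. The NB4 value was 0.28 under median-ratio scaling and 0.14 under quantile normalization, 0.25 without DMSO replicate 2, and 0.66, called by the limits of the study, without DMSO replicate 1. With limma-voom on recovered reads it was 0.49 (adjusted p = 0.0399).

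TET1 (chr10:68560337-68694487, plus strand) was the least abundant member in both lines. It had 0.421, 0.383 and 0.198 RPKM under DMSO and 0.396, 0.268 and 0.571 RPKM under FP54 in MOLM-13 cells, and 0.821, 0.342 and 0.670 RPKM against 0.795, 0.814 and 1.17 RPKM in NB4 cells. The groups overlapped in both lines. These levels rest on 15 to 163 reads per library, and in a fit without the filter the log2 fold changes were 0.23 (95% confidence interval -0.50 to 0.97) in MOLM-13 and 0.58 (-0.09 to 1.24) in NB4 cells, intervals that hold both no change and one larger than the fold limit. With the olfactory receptor level subtracted, the NB4 mean under FP54 was 143.5% of DMSO, against 151.6% as deposited.

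FTO itself, the gene of the degraded protein, had 1.01 ± 0.0767 RPKM under DMSO and 1.01 ± 0.118 RPKM under FP54 in MOLM-13 cells (SD, n = 3). In NB4 cells it had 2.73 ± 0.180 and 2.03 ± 0.0782 RPKM (SD, n = 3), a log2 fold change of -0.41 (limma adjusted p = 0.0119) that was short of the fold limit, so FTO was not called in either line. ALKBH5 had log2 fold changes of -0.03 and -0.16 in MOLM-13 and NB4 cells, neither past the test. The protein level of FTO is not measured by these libraries.

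Counts of non-overlapping groups depend on the cell line. In MOLM-13 cells the FP54 and DMSO values did not overlap for 4 of the 9 members tested, 2 lower and 2 higher, beside 37.1% of all genes. In NB4 cells they did not overlap for 6 of 9, 3 lower and 3 higher, beside 60.5% of all genes. The median log2 fold change of the 9 members was 0.18 in MOLM-13 and -0.22 in NB4 cells, against 0.00 and 0.07 for all genes tested. In NB4 cells median-ratio scaling shifted the median of all genes by -0.20 and quantile normalization by -0.11, so small changes there are relative to the scaling chosen.

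The FP54 effects were then compared between the lines with an interaction term over the 8849 genes tested in both. Of all these genes 14.2% differed at an adjusted p below 0.05, and of the 9 members tested 0 did. At an unadjusted p below 0.05, where 28.2% of these genes lay, there were 2 members, TET3 and ALKBH4, and limma-voom on recovered read numbers also gave 0 and 2. At an adjusted p below 0.05 the count was 1 under median-ratio scaling (ALKBH4, -0.65), 2 under quantile normalization (ALKBH4, -0.61, and ALKBH6, -0.81) and 1 without NB4 DMSO replicate 1 (TET3, 0.65). ALKBH4 had a difference, NB4 minus MOLM-13, of -0.48 (95% confidence interval -0.91 to -0.05, limma adjusted p = 0.134). For ALKBH2 the difference was 0.41 (-0.18 to 0.99) and for ALKBH6 -0.32 (-0.74 to 0.09), intervals that hold both no difference and one larger than the fold limit. For ALKBH2 no setting gave an adjusted p below 0.05, while for ALKBH6 quantile normalization did (limma adjusted p = 0.00795), so whether its changes in the lines differ depended on the scaling.

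The level in DMSO-treated cells differed between the lines by more than the FP54 effect for several members. No test was made, because each line has a table of its own and line and table cannot be told apart. ALKBH6 had 10.2 ± 0.895 RPKM in MOLM-13 and 1.22 ± 0.188 RPKM in NB4 cells (SD, n = 3), 8.34 times as much in MOLM-13 cells. ALKBH7 was 3.31 times, TET2 3.24 times and ALKBH3 1.49 times as high in MOLM-13 as in NB4 cells. The reverse held for ALKBH2, with 8.53 ± 2.50 RPKM in MOLM-13 and 20.8 ± 3.84 RPKM in NB4 cells (SD, n = 3), 2.44 times as much in NB4 cells. ALKBH8 was 1.73 times, TET3 1.70 times, ALKBH4 1.45 times and ALKBH1 1.30 times as high in NB4 cells. Values of the 2 lines overlapped for TET1 and for no other member. The TET genes thus had unlike balances, with TET2 at 6.19 RPKM and TET3 at 5.86 RPKM in MOLM-13 cells but 1.91 and 9.95 RPKM in NB4 cells.

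**Figure D4:**
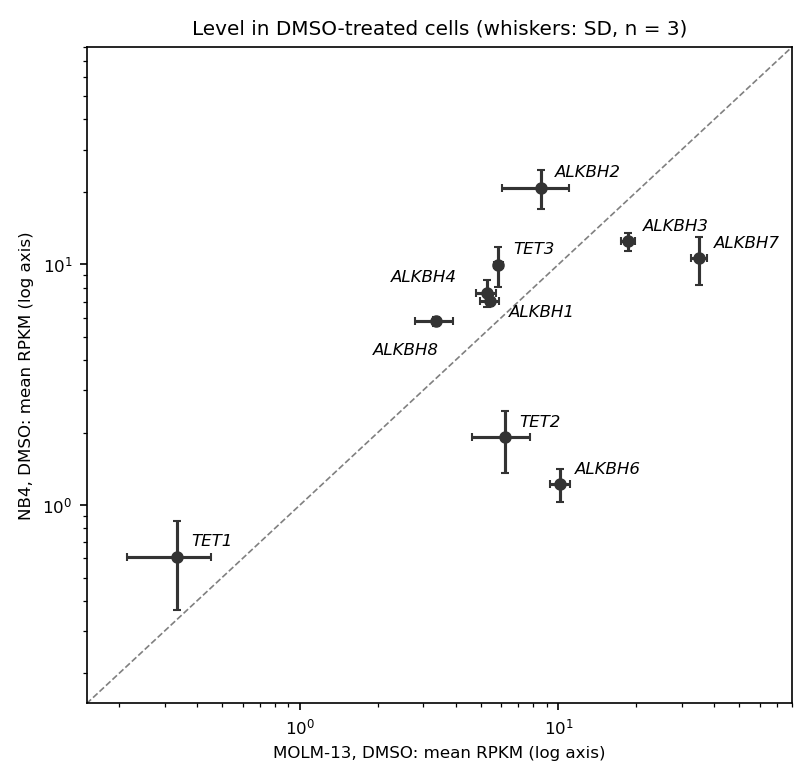
Mean RPKM of the 10 genes in DMSO-treated MOLM-13 cells (horizontal, log axis) and NB4 cells (vertical, log axis), with whiskers of 1 SD (n = 3) and a dashed line of equal levels. ALKBH6, TET2, ALKBH7 and ALKBH3 lie below the line and ALKBH2, TET3, ALKBH8, ALKBH4 and ALKBH1 above it.

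In order of level per length, DMSO-treated MOLM-13 cells had ALKBH7, ALKBH3, ALKBH6, ALKBH2, TET2, TET3, ALKBH1, ALKBH4, ALKBH8 and TET1. ALKBH7 and ALKBH3 stood apart from their neighbours in this order, as did ALKBH8 and TET1, while the values of neighbours from ALKBH6 down to ALKBH4 overlapped. DMSO-treated NB4 cells had ALKBH2 first, apart from the rest, then ALKBH3, ALKBH7, TET3, ALKBH4 and ALKBH1, each overlapping its neighbour, then ALKBH8, TET2, ALKBH6 and TET1. Under FP54, ALKBH2 moved from place 4 to place 8 in MOLM-13 cells and stayed first in NB4 cells. In FP54-treated MOLM-13 cells the values of neighbours from TET2, at place 4, down to ALKBH2 overlapped.

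The genes with the most similar profile were sought for the members called in at least 1 line, as the smallest root mean square difference of centred log2 values over the 12 libraries. For ALKBH2 these were DHX30 (0.125), CFL1 (0.137) and EIPR1 (0.142), against a spread of ALKBH2 around its own mean of 0.857. DHX30, an RNA helicase, had log2 fold changes of -0.79 in MOLM-13 and -0.51 in NB4 cells. For ALKBH6 they were SERPINB1 (0.199), SSH3 (0.210) and CSF3R (0.213), against a spread of 1.60. CSF3R, the receptor of granulocyte colony-stimulating factor, had 32.0 RPKM in MOLM-13 and 4.20 RPKM in NB4 cells under DMSO. The libraries of a line share its level, so the difference between the lines weighs heavily in this likeness.

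The partners of these enzymes were read from the same fits as 8 lists holding 115 genes, described by counts and medians only. The shares of all genes called, against which each count is to be read, were 9.04% lower and 9.3% higher in MOLM-13 cells and 10.7% lower and 18.6% higher in NB4 cells. Of 10 DNA methyltransferases and methyl-CpG readers, which write and read the mark that TET proteins oxidise, 3 were called lower in MOLM-13 and 2 in NB4 cells, and the rest were not called. UHRF1, which brings DNMT1 to replicated DNA, fell in both, with log2 fold changes of -1.33 and -0.56 (limma adjusted p = 0.00845 and 0.00110). DNMT1, the maintenance methyltransferase, fell by 0.72 on the log2 scale in MOLM-13 cells, where MBD3 had -0.86, and MBD2 had -0.52 in NB4 cells. The list median was -0.22 in MOLM-13 and -0.15 in NB4 cells.

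Of the 14 genes of base excision repair that follows TET oxidation, 1 was called lower and 2 higher in MOLM-13 cells, and of 12 tested in NB4 cells 2 lower and 2 higher. GADD45A, a stress gene linked to DNA demethylation, was called in both lines in opposite directions, from 55.3 to 32.9 RPKM in MOLM-13 cells (log2 fold change -0.77) and from 6.77 to 20.1 RPKM in NB4 cells (1.55). NEIL1 and POLB, a glycosylase and a repair polymerase, had 0.77 and 0.61 in MOLM-13 cells. SMUG1, another glycosylase, had 0.67 and APEX1, the endonuclease at abasic sites, -0.80 in NB4 cells, where the ligase gene LIG3 had -0.60. The list medians were -0.23 in MOLM-13 and -0.12 in NB4 cells. Among 5 tested TET partners and regulators WT1, which recruits TET2, was called lower in MOLM-13 cells (-0.99) and OGT, the sugar transferase bound by TET proteins, higher in NB4 cells, from 25.8 to 64.3 RPKM (1.35). The medians of the 5 tested in each line were -0.48 in MOLM-13 cells, the lowest of the 8 lists, and 0.07 in NB4 cells.

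Of 11 genes that supply 2-oxoglutarate or remove 2-hydroxyglutarate, 3 were called lower and 1 higher in MOLM-13 cells and 2 lower and 2 higher in NB4 cells. D2HGDH, which turns 2-hydroxyglutarate into 2-oxoglutarate, rose from 4.68 to 10.2 RPKM in MOLM-13 cells (log2 fold change 1.08, limma adjusted p = 0.00727) and from 5.03 to 7.36 RPKM in NB4 cells (0.54, limma adjusted p = 0.00300). GOT1, a transaminase that makes 2-oxoglutarate from glutamate in the cytosol or runs in reverse, was called lower in MOLM-13 (-1.07) and higher in NB4 cells (0.59). The citric acid cycle subunit IDH3A had -0.94 in MOLM-13 cells and IDH3B -0.67 in NB4 cells. The mitochondrial transaminase GOT2 was called lower in both lines, with -0.88 in MOLM-13 and -0.57 in NB4 cells. List medians were -0.16 and -0.01.

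Of the alkylation repair partners, ASCC3, the helicase that works with ALKBH3, was the 1 of 8 called lower in MOLM-13 cells (-0.68), and MPG, the glycosylase for alkylated purines, the 1 of 9 called higher in NB4 cells (0.76). The list medians were 0.01 and -0.06. For tRNA modification 2 of 13 genes were called lower in MOLM-13 cells, TRMT6 (-1.25) and TRMT10C (-0.89), and 3 of 14 in NB4 cells, CTU2 (-1.21), TRMT10C (-0.79) and TRMT61A (-0.73), and the rest were not called. TRMT6 and TRMT61A form the enzyme that writes the 1-methyladenosine of tRNA, and CTU2 belongs to the complex that thiolates the wobble uridine. The list medians, -0.32 and -0.36, were below those of all genes.

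Among the other 2-oxoglutarate dioxygenases, JmjC histone demethylases and hydroxylases, 1 of 35 was called lower and 1 higher in MOLM-13 cells, while 2 of 37 were called lower and 10 higher in NB4 cells, where 18.6% of all genes were called higher. P4HA1, a collagen prolyl hydroxylase subunit induced by low oxygen, rose in both, by 0.52 in MOLM-13 and by 1.99 on the log2 scale in NB4 cells, there from 31.8 to 127 RPKM. KDM6B and KDM7A, histone demethylases, had 1.68 and 1.34 in NB4 cells, and JMJD6, a lysyl hydroxylase, -0.67 in MOLM-13 cells. The list medians were 0.17 and 0.31, and those of the 9 AlkB and TET members, as given above, 0.18 and -0.22.

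**Figure D5:**
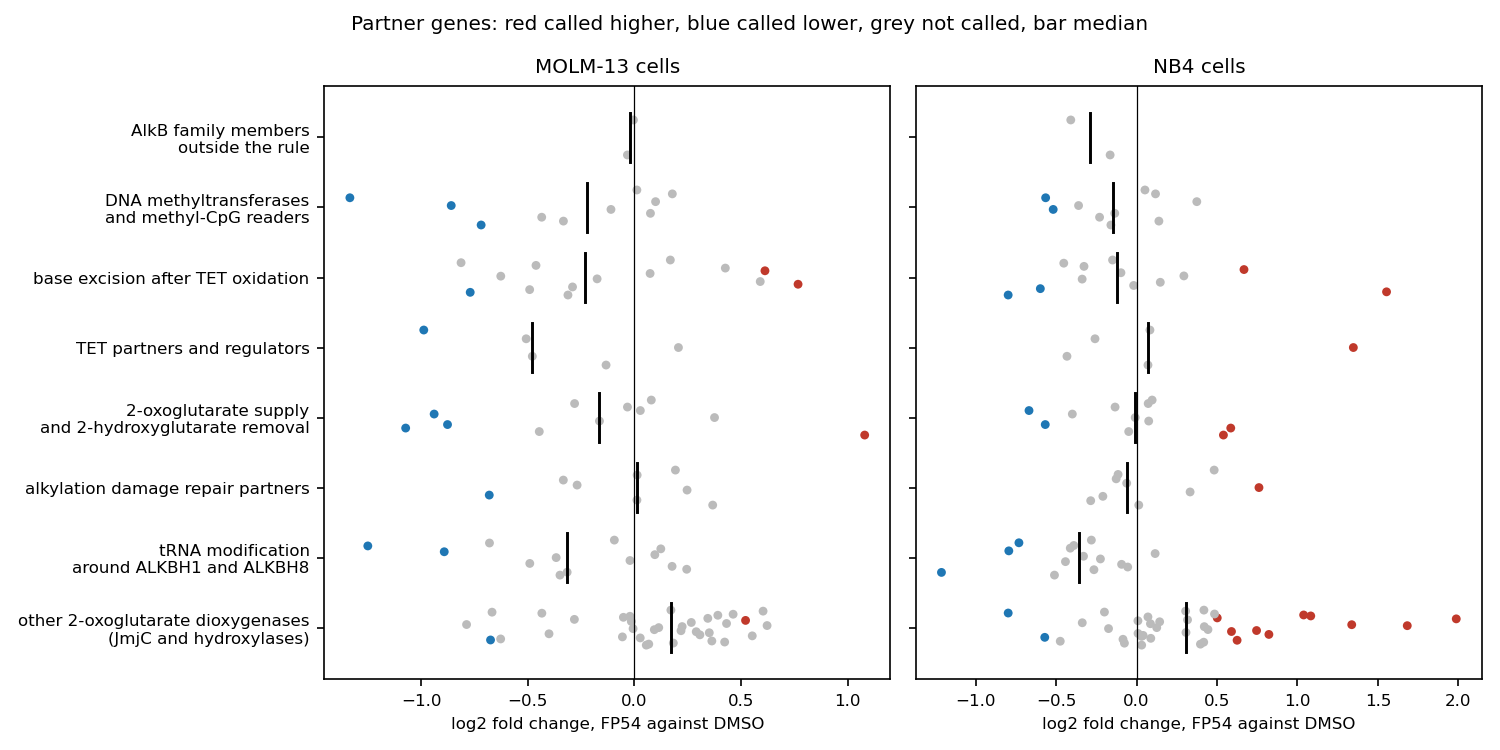
Log2 fold change (horizontal axes, FP54 against DMSO) of each tested partner gene in 8 lists (rows) in MOLM-13 cells (left) and NB4 cells (right), with genes called higher in red, called lower in blue and not called in grey, and a bar at each list's median. The methyltransferase and tRNA lists hold blue points and no red ones in both lines, and the last row holds 10 red points in NB4 cells.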

How the data were processed

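The 12 RNA-seq samples were analysed, and the other 10 samples of the series, m6A-seq and polysome-seq, were not analysed here. The authors selected poly(A) RNA, made libraries with a stranded kit, trimmed reads with Cutadapt 4.8, removed duplicates with Clumpify, aligned to hg38 with STAR 2.7.11b and counted reads on protein-coding genes of GENCODE 42 with featureCounts 2.0.3. The deposited values are RPKM made by the authors, who do not state the gene lengths used. With exon lengths of GENCODE 44, whole reads (within 0.05) came out for 98.5% to 99.1% of values below 100 reads. Recovered library totals were 16299701 to 17346914 (DMSO) and 5829730 to 19191055 (FP54) in MOLM-13 cells, and 20654055 to 22344265 and 10595647 to 13071303 in NB4 cells. The line of the NB4 table rests on its name.

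R 4.3.3 and limma 3.58.1 were used to fit log2(RPKM + 0.1) in each line (lmFit, eBayes with an intensity trend, no block), with Benjamini-Hochberg adjustment over all genes tested. A fold change is on the log2(RPKM + 0.1) scale and understates low genes. The smallest exact permutation p that 3 against 3 libraries allow is 0.1. The code was tested on simulated data. Alternatives were other pseudocounts (1 and 0.01), no filter or one at 5 RPKM, median-ratio scaling, quantile normalization, subtraction of the olfactory receptor level, a replicate block, eBayes without trend or robust, 3 other cutoffs, limma-voom on recovered reads, and each library left out. The subtraction for TET1, which needs no filter, was added after seeing the data. The members, lists and tests were chosen with earlier results of these data known. Genes are named by rule: all members, FTO, ALKBH5, in each list the called genes with the 3 largest changes, the 3 genes nearest each called member, marker genes. SLIRP, LRWD1 and LIG3 (in NB4 cells) fall outside this rule. So do list genes named for a second line, D2HGDH in NB4 and GOT2 in MOLM-13 cells. All of these were chosen after their values were seen.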

Additional observations from a re-analysis of the deposited data

Results flagged for a closer look

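TET3 lay on opposite sides of DMSO in the 2 lines, with every FP54 library below every DMSO library in MOLM-13 cells and above every one in NB4 cells. The difference of the log2 fold changes, NB4 minus MOLM-13, was 0.52, and its limma adjusted p of 0.101 (range 0.0443 to 0.201 over the alternatives) did not pass 0.05. It passed without NB4 DMSO replicate 1 (0.65) and was 0.35 under median-ratio scaling.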

How the results depend on the processing

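In MOLM-13 cells 150 of 152 log2 fold changes of single members under alternatives stayed on the same side of the limits, in NB4 cells 146 of 151, and for the difference between the lines 200 of 204. With limits of p below 0.05 and of 1 on the log2 scale, the members called in MOLM-13 cells were 0 lower and 0 higher. Leaving out single libraries gave 0 to 1 called lower in MOLM-13 cells, 0 to 1 lower and 0 to 1 higher in NB4 cells, and 0 to 1 that differed between the lines. In NB4 cells 1 was lower and 1 higher at an adjusted p below 0.05 with no fold limit, and median-ratio scaling gave 1 lower, ALKBH2 (-0.64). ALKBH2 was called there without DMSO replicate 1 (-0.50) or DMSO replicate 3 (-0.53), TET2 without DMSO replicate 1 (0.66) and ALKBH6 without DMSO replicate 2 (0.51). The members that differed between the lines were 1 under median-ratio scaling (ALKBH4, -0.65), 2 under quantile normalization (ALKBH4, -0.61, and ALKBH6, -0.81) and TET3 without NB4 DMSO replicate 1 (0.65). The cause was not tested.

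Some signs changed. In MOLM-13 cells leaving out libraries gave -0.219 to 0.0340 for ALKBH1 and -0.0208 to 0.360 for ALKBH7. In NB4 cells ALKBH3 was 0.000658 with limma-voom and -0.0425 to 0.0684 with libraries left out, and ALKBH6, 0.40 as deposited, was -0.0731 under quantile normalization. For the difference between the lines, ALKBH8 was -0.0617 under median-ratio scaling and -0.0399 under quantile normalization, TET2 -0.0283 and -0.197, and libraries left out gave -0.250 to 0.00249 for ALKBH1 and -0.0755 to 0.332 for TET2. The replicate block takes libraries of the same number as pairs. With it the counts of members stayed at 1 lower and 1 higher in MOLM-13 and 0 and 0 in NB4 cells, with 0 that differed. The limma adjusted p in NB4 cells was then 0.0337 for TET2 and 0.0422 for TET3. Deviations of same-numbered libraries correlated at -0.26, -0.13 and -0.06 in MOLM-13 and -0.14, 0.07 and 0.12 in NB4 cells. In MOLM-13 cells every library correlated best with another number. DMSO replicate 1 did so with FP54 replicate 3 (0.59), 2 with 1 (0.49) and 3 with 2 (0.47). The highest in NB4 cells were 0.22 (DMSO replicate 1, FP54 replicate 3) and 0.18 (DMSO replicate 2, FP54 replicate 1). The numbers thus do not pair the libraries, and the source of these shared deviations was not tested. A block by number therefore cannot show whether the counts hold under another matching. The filter at a mean of 5 RPKM gave no value for ALKBH8 in MOLM-13 cells, for ALKBH6 and TET2 in NB4 cells, or for TET1. The shallowest library, MOLM-13 FP54 replicate 2, limits TET1 (15 reads) and ALKBH1 (65 reads) most.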
